A study of Mus musculus with 6 samples.

Results

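The Slam receptor genes Slamf1, Cd48, Ly9, Cd84, Slamf6, Slamf7, Slamf8 and Slamf9 were examined in bone-marrow LSK cells of Mc5r-null and wild-type (WT) mice. These 8 genes were taken by name from a deposited table of 55487 genes, and each name occurred there once. SLAM receptors are immunoglobulin-like surface proteins of blood cells. Most of them bind another copy of themselves on a neighbouring cell and signal through tyrosine motifs that recruit small adaptors of the SAP family. In mouse marrow the proteins of 2 of the genes, CD150 (Slamf1) and CD48 (Cd48), divide LSK cells: long-term stem cells are known to carry CD150 and lack CD48, and most multipotent progenitors carry CD48.

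LSK cells are the lineage-negative, Sca-1 and Kit positive cells of the marrow, the fraction that holds stem cells and multipotent progenitors. Poly-A RNA was sequenced in 6 libraries. There were 3 from mice lacking Mc5r, the melanocortin 5 receptor (Mc5r-/- in the labels), and 3 from WT littermates. The series describes all mice as irradiated, with no dose, time after irradiation, age or strain given in the sources used here. Neither the mutant allele nor the number of mice behind a library is given, so the spread between libraries, on which each p-value rests, may be technical.

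Gene counts summed to between 13983016 and 14076870 in the Mc5r-null libraries and between 14903723 and 14953169 in the WT libraries. The targeted gene Mc5r had 0, 0 and 1 counts in the Mc5r-null libraries and 181, 157 and 198 in the WT libraries, as labelled. Levels are given as CPM, a library's counts scaled by its total. The genes of both gate antigens were present in every library, with Kit averaging 256.2 ± 5.21 CPM in Mc5r-null and 240.9 ± 2.95 CPM in WT (SD, n = 3 each), and Ly6a, which encodes Sca-1, at 60.0 to 77.6 CPM in Mc5r-null and 47.1 to 65.8 CPM in WT. Transcripts of plasma cells and other mature cells were also present, and their values stand beside the results below.

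Slamf1, Slamf7 and Slamf9 were higher in Mc5r-null LSK cells, by between 2.07-fold and 2.67-fold, and Cd48 and Slamf6 were slightly lower. Ly9 and Cd84 were not called in either direction, and Slamf8 was too scarce to test. Of the 8 members, 7 passed the filter on low counts, each in all 3 libraries of both genotypes. Of these 7, edgeR's quasi-likelihood test called 3 higher and 2 lower, at a threshold of 0.05 on the p adjusted by Benjamini-Hochberg over all genes tested. Among all 15257 genes tested, 32.9% were called, 16.8% higher and 16.1% lower. These shares are the background for each list of genes below. The median log2 fold change was 0.02 over the 7 members and -0.005 over all genes tested. The libraries of the genotypes did not overlap in CPM for 5 of the 7, against 49.8% of all genes tested. In bulk RNA, more cells of a type and more RNA per cell cannot be told apart.

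**Figure D1:**
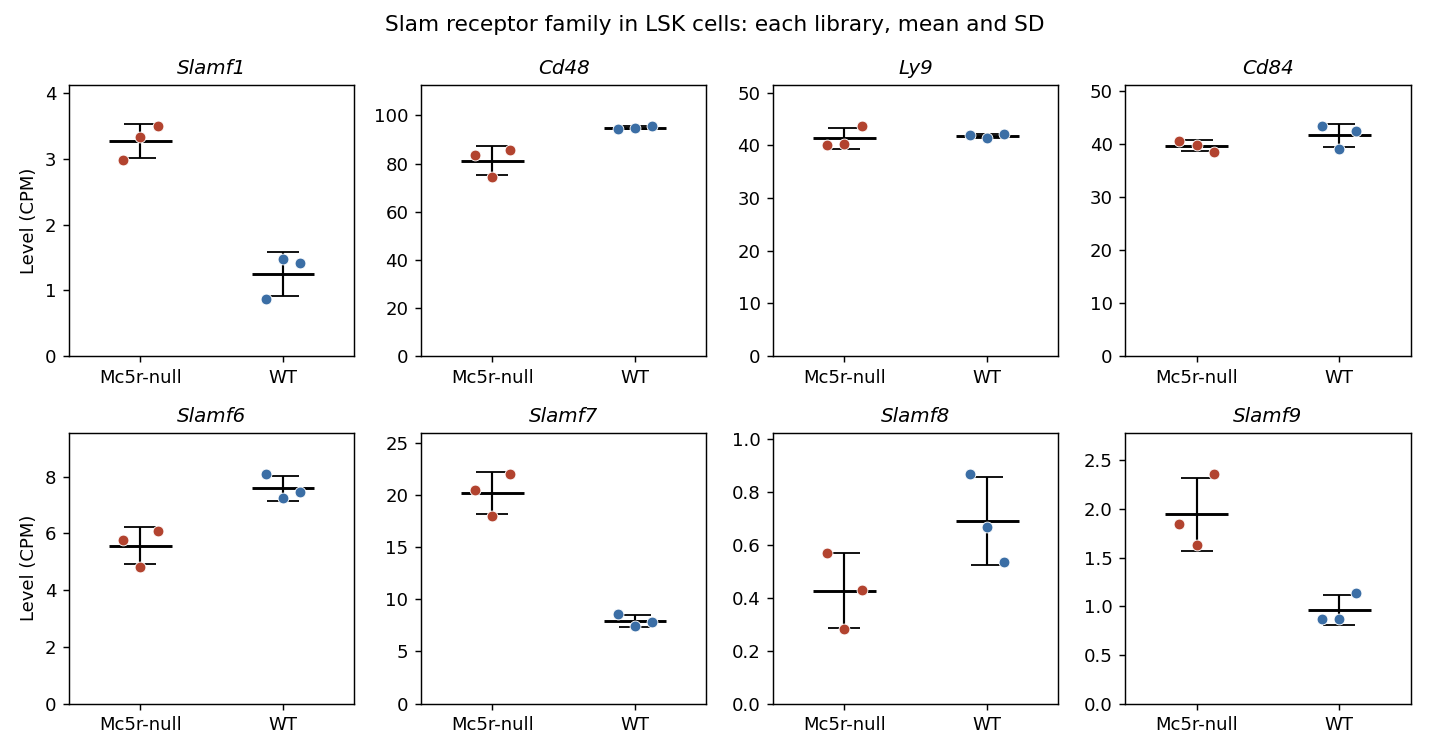
Level of each Slam receptor gene in CPM, with 1 point per library, for 3 Mc5r-null and 3 WT libraries; horizontal lines are means and error bars are SDs. The points of Slamf1, Slamf7 and Slamf9 lie higher in Mc5r-null, those of Cd48 and Slamf6 lie lower, and those of Ly9, Cd84 and Slamf8 overlap.

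Promoter sequences are shown for the 5 called members, so that the genes that were higher can be compared with those that were lower. Each runs from 250 bases before to 50 bases after the start site (RefSeq, GRCm38.p6), 5′ to 3′ on the strand of the gene. RefSeq windows were found for 7 of the 8 members, all but Ly9. Capitals mark matches on either strand to any of 5 motifs chosen after the values were seen. These were AGATAA, which GATA factors bind, TGTGGT, which RUNX factors bind, GAGGAA, the core of PU.1 sites, and the E-boxes, namely CAGCTG in one form and CACGTG in the other. No printed matches overlap.
Slamf1, chr1:171766882-171767181, plus strand: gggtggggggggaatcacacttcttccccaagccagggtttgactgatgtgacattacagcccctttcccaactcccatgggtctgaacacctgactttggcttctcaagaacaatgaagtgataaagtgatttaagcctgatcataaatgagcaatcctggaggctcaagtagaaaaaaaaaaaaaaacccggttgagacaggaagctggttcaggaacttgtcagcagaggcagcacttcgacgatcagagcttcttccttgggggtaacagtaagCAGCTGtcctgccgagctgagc
Slamf7, chr1:171648950-171649249, minus strand: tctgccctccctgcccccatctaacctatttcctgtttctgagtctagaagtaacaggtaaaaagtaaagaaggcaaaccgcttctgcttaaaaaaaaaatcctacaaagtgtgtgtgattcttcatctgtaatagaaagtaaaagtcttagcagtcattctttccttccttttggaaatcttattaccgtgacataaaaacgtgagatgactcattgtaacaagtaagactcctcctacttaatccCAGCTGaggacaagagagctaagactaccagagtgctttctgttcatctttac
Slamf9, chr1:172475110-172475409, plus strand: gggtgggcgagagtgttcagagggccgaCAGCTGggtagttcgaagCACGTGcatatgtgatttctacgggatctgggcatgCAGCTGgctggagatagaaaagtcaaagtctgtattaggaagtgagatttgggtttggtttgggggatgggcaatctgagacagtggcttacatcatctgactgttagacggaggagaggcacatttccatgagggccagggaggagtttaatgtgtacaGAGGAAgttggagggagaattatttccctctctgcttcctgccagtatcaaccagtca
Cd48, chr1:171681742-171682041, plus strand: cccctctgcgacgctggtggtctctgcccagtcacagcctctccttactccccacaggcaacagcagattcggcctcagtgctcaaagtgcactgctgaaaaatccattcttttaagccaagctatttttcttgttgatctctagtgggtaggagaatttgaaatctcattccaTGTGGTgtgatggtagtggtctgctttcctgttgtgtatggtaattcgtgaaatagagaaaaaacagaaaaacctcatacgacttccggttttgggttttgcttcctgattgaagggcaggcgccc
Slamf6, chr1:171917212-171917511, plus strand: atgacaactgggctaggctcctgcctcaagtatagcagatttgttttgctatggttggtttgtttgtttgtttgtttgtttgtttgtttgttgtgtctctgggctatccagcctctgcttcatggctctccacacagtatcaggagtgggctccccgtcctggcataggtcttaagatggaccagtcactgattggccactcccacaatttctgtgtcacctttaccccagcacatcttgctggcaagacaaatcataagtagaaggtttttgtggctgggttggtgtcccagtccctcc

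The windows of the 3 members called higher each held the E-box CAGCTG, with its first base at 29 after the start in Slamf1, at -3 in Slamf7 and at -222 and -168 in Slamf9. Those of the 2 members called lower did not, and neither did that of Cd84, while the window of the untested Slamf8 held it at -55. Of all 32851 promoter windows, 16.3% held CAGCTG. Positions are counted from the RefSeq start, which for Slamf7 lies inside the deposited gene, whose minus-strand span runs to 171653035. Cd48 had a TGTGGT match at -76, a motif in 16.8% of windows. Slamf9 also held CACGTG at -204, found in 7.15% of windows, and GAGGAA at -8, found in 28.3%. The window of Slamf8 held CACGTG too, at -157, and GAGGAA matched at 12 in Cd84 and at 20 in Slamf8. Slamf6 held none of the 5 motifs, and AGATAA, in 11.2% of all windows, matched in none of the 7 windows. A match is a run of letters and does not show a bound site. The motifs were chosen after the values were seen, so the split of CAGCTG by call is a description and was not tested.

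Slamf1 (ENSMUSG00000015316, GRCm38 chromosome 1, 171767127 to 171801184, plus strand) encodes CD150, a receptor that binds itself and is used to sort stem cells. It had 42, 47 and 49 counts in the Mc5r-null libraries, against 13, 22 and 21 in the WT libraries. These were 2.99, 3.34 and 3.50 CPM in Mc5r-null and 0.869, 1.47 and 1.41 CPM in WT. The lowest Mc5r-null library lay above the highest WT library, although all counts were low. Slamf1 rose by a log2 fold change of 1.42 ± 0.21 (SE), or 2.67-fold, with an edgeR adjusted p of 0.00139. It was called in each of 14 alternatives, with log2 fold changes between 1.21 and 1.55.

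Cd48 (ENSMUSG00000015355, chromosome 1, 171682009 to 171705258, plus strand) encodes a receptor tied to the membrane by a lipid anchor, the ligand of CD244 and CD2. It had 1175, 1046 and 1197 counts in the Mc5r-null libraries, against 1412, 1415 and 1424 in the WT libraries. In CPM it had 83.6, 74.3 and 85.6 in Mc5r-null and 94.4, 94.8 and 95.5 in WT. The genotypes did not overlap, and Mc5r-null replicate 2 lay lowest. The fall was small, a log2 fold change of -0.19 ± 0.05 (SE), or 1.14-fold, with an edgeR adjusted p of 0.0209. The call was lost with DESeq2 (adjusted p = 0.0831), without WT replicate 2 (edgeR adjusted p = 0.0517) and without WT replicate 3 (edgeR adjusted p = 0.0519).

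Because both transcripts moved, in opposite directions, their proportion differed more than either alone. For each 100 Cd48 counts there were 3.57, 4.49 and 4.09 Slamf1 counts in the Mc5r-null libraries, and 0.921, 1.55 and 1.47 in the WT libraries. Each Mc5r-null library lay above each WT library. This ratio describes RNA of the mixed cells and gives no share of CD150-positive or CD48-negative cells, and it was not tested.

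Ly9 (ENSMUSG00000004707, chromosome 1, 171588624 to 171607410, minus strand) encodes CD229, which together with CD244 is used to subdivide stem cells and multipotent progenitors. Its level was 40.1, 40.3 and 43.6 CPM in Mc5r-null and 41.9, 41.3 and 42.1 CPM in WT. The values overlapped, and the log2 fold change was 0.02 ± 0.05 (SE, edgeR adjusted p = 0.806). Cd244a (ENSMUSG00000004709, chromosome 1, 171559193 to 171609746, plus strand), the gene of the CD48 receptor CD244, is a relative outside the 8 genes. It had 29.5, 28.9 and 30.3 CPM in Mc5r-null and 26.7, 25.7 and 27.5 CPM in WT, without overlap. Its log2 fold change of 0.18 ± 0.06 (SE) had an edgeR adjusted p of 0.0369, and the call was lost in 9 of 14 alternatives, among them DESeq2 and each omission of a library, with an adjusted p of up to 0.224. All 18787 bases of Ly9 lie inside Cd244a on the opposite strand. The sources used here do not give the use of strand in counting, so reads of the pair may be mixed.

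Cd2, which encodes another receptor for CD48, was scarce, with 16, 14 and 16 counts in the Mc5r-null libraries and 10, 7 and 7 in the WT libraries. It was called higher, with a log2 fold change of 1.05 ± 0.29 (SE, edgeR adjusted p = 0.0233). Only the Mc5r-null libraries lifted it over the filter on low counts, in 3 libraries against 0 of WT, so its call carries little weight. It was lost with DESeq2 (adjusted p = 0.196) and without Mc5r-null replicate 1 or 3 or WT replicate 2 or 3 (edgeR adjusted p = 0.0684, 0.0666, 0.0724 and 0.0744).

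Slamf7 (ENSMUSG00000038179, chromosome 1, 171632403 to 171653035, minus strand) encodes CD319, a receptor of plasma cells, natural killer cells and other leukocytes. It had 288, 253 and 307 counts in the Mc5r-null libraries, against 128, 111 and 116 in the WT libraries. The lowest Mc5r-null level, 18.0 CPM, lay well above the highest WT level, 8.56 CPM. The log2 fold change was 1.38 ± 0.10 (SE), or 2.60-fold (edgeR adjusted p = 2.37e-05), and Slamf7 was called in each of 14 alternatives. It took 10.4 ± 0.530% of the counts of the 8 genes in Mc5r-null and 4.03 ± 0.239% in WT (SD, n = 3 each).

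Most plasma cell genes listed moved with Slamf7. Of 12 tested, 10 were higher and 0 lower (median log2 fold change 1.15), and their summed level was 4064.6 to 7064.3 CPM in Mc5r-null and 2354.8 to 2394.8 CPM in WT. Not called were Txndc5 (log2 fold change 0.56, edgeR adjusted p = 0.208), whose genotypes overlapped, and Fkbp11, which leaned lower without overlap (-0.26, edgeR adjusted p = 0.0530). No plasma cell gene listed was at 0. The joining chain gene Jchain made up most of the sum, with 5602.7, 5494.6 and 2618.7 CPM in Mc5r-null and 1782.5, 1754.7 and 1742.9 CPM in WT. Named by their p were the protease inhibitor gene Slpi (log2 fold change 2.09), Mzb1 (1.19), the transcription factor gene Irf4 (1.24) and the syndecan gene Sdc1 (1.12), with edgeR adjusted p-values of at most 7.46e-06. The part of these cells in the Slamf7 difference was not tested.

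Cd84 (ENSMUSG00000038147, chromosome 1, 171839697 to 171890718, plus strand) encodes a receptor that binds itself and is found on platelets, mast cells and lymphocytes. It had 40.6, 39.8 and 38.5 CPM in Mc5r-null and 43.3, 39.1 and 42.4 CPM in WT. The groups overlapped, and the log2 fold change was -0.04 ± 0.06 (SE, edgeR adjusted p = 0.681). Genes of mast cells, basophils and eosinophils, of which 8 were lower and 0 higher among 10 tested, summed to 355 to 412 CPM in Mc5r-null and 667 to 703 CPM in WT. The basophil protease genes Mcpt8 (log2 fold change -1.66) and Prss34 (-1.59), the carboxypeptidase gene Cpa3 (-1.41) and the eosinophil granule gene Prg2 (-0.79) had the smallest p-values, while the connective-tissue mast cell protease genes Cma1 and Tpsb2 were at 0 in every library. Their part in the level of Cd84 was not tested.

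Slamf6 (ENSMUSG00000015314, chromosome 1, 171917515 to 171953170, plus strand) encodes CD352, a receptor of T, B and natural killer cells. It had 81, 68 and 85 counts in the Mc5r-null libraries, against 121, 108 and 111 in the WT libraries. In CPM these were 5.76, 4.83 and 6.08 in Mc5r-null and 8.09, 7.23 and 7.45 in WT, with no overlap. The log2 fold change was -0.42 ± 0.12 (SE), or 1.33-fold lower (edgeR adjusted p = 0.0290). The call was lost with DESeq2 (adjusted p = 0.166) and without Mc5r-null replicate 1 or 2 or WT replicate 1 or 3 (edgeR adjusted p = 0.0542, 0.0872, 0.0894 and 0.0586).

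Lymphocyte genes were called in both directions beside Slamf6. Of all genes tested, 16.8% were higher and 16.1% lower, so calls in both directions are not particular to lymphocyte genes. Of 10 T and natural killer cell genes tested, 3 were higher and 1 lower (median log2 fold change 0.49), and the list summed to 253 to 259 CPM in Mc5r-null and 299 to 303 CPM in WT. Nkg7, a granule gene and the 1 called lower, held most of that sum, at 202 to 208 CPM in Mc5r-null and 266 to 268 CPM in WT. The T cell receptor chain gene Cd3e had 0.925, 0.924 and 1.22 CPM in Mc5r-null and 0, 0.335 and 0.335 CPM in WT, a call lost without Mc5r-null replicate 3 (edgeR adjusted p = 0.0621). The signalling adaptor gene Lat was higher (log2 fold change 0.70). The call of the perforin gene Prf1 (log2 fold change 1.11) was lost in 6 alternatives, DESeq2 among them (adjusted p = 0.135). Cd3e and Prf1, which are 2 of the 3 called higher, passed the filter on low counts through the Mc5r-null libraries alone. Of 11 B cell genes tested, 3 were higher and 4 lower (median -0.31), and their sum was 167 to 171 CPM in Mc5r-null and 153 to 160 CPM in WT. The pre-B cell genes Igll1 (log2 fold change -1.27) and Vpreb1 (-1.11) were lower, and the antigen receptor chain gene Cd79a (0.98) and Ms4a1 (1.77), which encodes CD20, were higher. The part of lymphocytes in the Slamf6 difference was not tested.

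Slamf9 and Slamf8 encode receptors known from macrophages and dendritic cells, whose short tails, unlike those of Slamf1, Ly9, Cd84, Slamf6 and Slamf7, lack the tyrosine motifs that SAP adaptors bind. Slamf9 (ENSMUSG00000026548, chromosome 1, 172475358 to 172478575, plus strand) had 26, 23 and 33 counts in the Mc5r-null libraries, against 13, 13 and 17 in the WT libraries. The genotypes did not overlap, with 1.63 CPM the lowest in Mc5r-null and 1.14 CPM the highest in WT. The log2 fold change was 1.05 ± 0.24 (SE), or 2.07-fold, with an edgeR adjusted p of 0.0109. DESeq2 did not call it (adjusted p = 0.0749).

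Slamf8 (ENSMUSG00000053318, chromosome 1, 172581758 to 172590568, minus strand) had 8, 4 and 6 counts in the Mc5r-null libraries, against 13, 10 and 8 in the WT libraries. Relative to all counts, the Mc5r-null level was 0.617 of the WT level (exact 95% interval 0.325 to 1.14, counting error only). A difference was not detectable at this depth. With no filter on low counts its log2 fold change was -0.66 with an edgeR adjusted p of 0.345. Slamf8 and Slamf9 lie 103 kb apart, and Slamf9 lies 522 kb beyond Slamf6, the nearest of the other members.

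Monocyte and macrophage genes were called in both directions, more of them lower, where Slamf9 was higher. Of 12 tested, 2 were higher and 7 lower (median log2 fold change -0.28), and their sum was 416 to 466 CPM in Mc5r-null and 601 to 686 CPM in WT. The monocyte gene Ly6c2, also called lower, held most of that sum, at 285.3 ± 23.2 CPM in Mc5r-null and 401.1 ± 46.1 CPM in WT (SD, n = 3 each). Csf1r, the gene of the M-CSF receptor (log2 fold change -0.81) and the chemokine receptor genes Cx3cr1 (-1.05) and Ccr2 (-1.13) were lower. The complement gene C1qa had 13, 18 and 13 counts in the Mc5r-null libraries and 3, 4 and 3 in the WT libraries (log2 fold change 2.22), and it passed the filter on low counts through the Mc5r-null libraries alone, so its call carries little weight. The other gene called higher was Axl (0.51, edgeR adjusted p = 0.0447), while the macrophage genes Adgre1 (-0.73), Cd68 (-0.36) and Vcam1 (-0.20) were lower. C1qb (0.97), which also passed through Mc5r-null alone, and Mrc1 (0.43) were not called (edgeR adjusted p = 0.101 and 0.0826). C1qc, Spic and Mertk, too scarce to test, had 37, 24 and 13 counts over the Mc5r-null libraries and 18, 9 and 4 over the WT libraries. Of 11 dendritic cell genes tested, 2 were higher and 5 lower (median -0.16), with a sum of 1073.1 to 1110.0 CPM in Mc5r-null and 802 to 869 CPM in WT, much of it Flt3, which progenitors also express. The plasmacytoid markers Siglech, at 2.49 to 3.58 CPM in Mc5r-null and 5.42 to 6.70 CPM in WT, and Bst2 (log2 fold change -0.20) were lower. Tcf4, also a plasmacytoid gene, averaged 149.3 ± 37.5 CPM in Mc5r-null and 103.0 ± 8.94 CPM in WT (SD, n = 3 each), and neither it (log2 fold change 0.57, edgeR adjusted p = 0.103) nor Ccr9 (0.25, edgeR adjusted p = 0.259) was called. The dendritic cell genes Clec9a and Cd209a, 2 of the 5 lower, passed the filter on low counts through the WT libraries alone. Cd74 (log2 fold change 0.89), a partner of class II antigen presentation, was higher. No gene of either list was at 0 in every library, and their part in the Slamf9 difference was not tested.

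**Figure D2:**
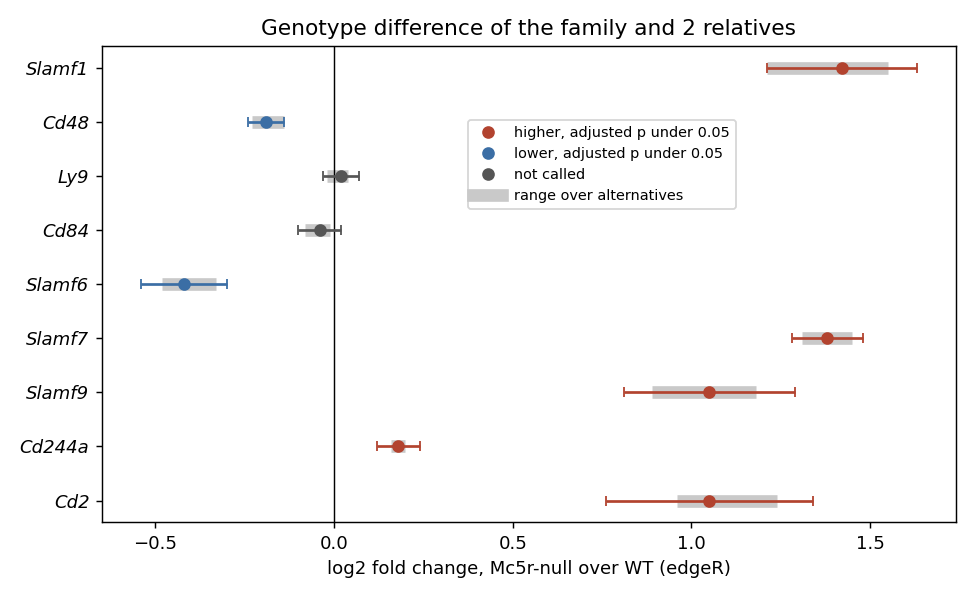
Log2 fold change of Mc5r-null over WT for the 7 members tested and the relatives Cd244a and Cd2; points are edgeR estimates, error bars SEs and grey bars the range over 14 alternatives (13 for Cd2, which a filter of 1 CPM in 3 libraries removes). Slamf1, Slamf7 and Slamf9 lie at 1.05 or above, while Cd48, Ly9, Cd84 and Slamf6 lie between -0.42 and 0.02.

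The members differed widely in level by the deposited FPKM, which divide by the summed length of all distinct exons of a gene. Overlapping exons count more than once in that length, so distances between members are approximate. Cd48 has 1805 bases by it and 1189 with overlaps counted once, while Slamf9 has 1313 by both. In Mc5r-null the order was Cd48 (44.97 ± 3.34 FPKM), Ly9 (7.95 ± 0.368), Cd84 (5.22 ± 0.138), Slamf7 (3.58 ± 0.358), Slamf9 (1.48 ± 0.284), Slamf1 (0.514 ± 0.0413), Slamf6 (0.459 ± 0.0536) and Slamf8 (0.137 ± 0.0455; SD, n = 3). In WT it was Cd48 (52.6 ± 0.317 FPKM), Ly9 (8.03 ± 0.0861), Cd84 (5.48 ± 0.297), Slamf7 (1.41 ± 0.102), Slamf9 (0.731 ± 0.119), Slamf6 (0.627 ± 0.0369), Slamf8 (0.221 ± 0.0535) and Slamf1 (0.196 ± 0.0520; SD, n = 3). Slamf1 thus stood sixth in Mc5r-null and last in WT. Neighbours whose libraries overlapped were Slamf1 and Slamf6 in Mc5r-null, and Slamf9 and Slamf6, and Slamf8 and Slamf1, in WT. Both orders were the same when overlapping exons were counted once, a length chosen after the data were seen, which put Cd48 at 68.3 ± 5.07 in Mc5r-null and 79.8 ± 0.481 in WT (SD, n = 3 each).

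**Figure D3:**
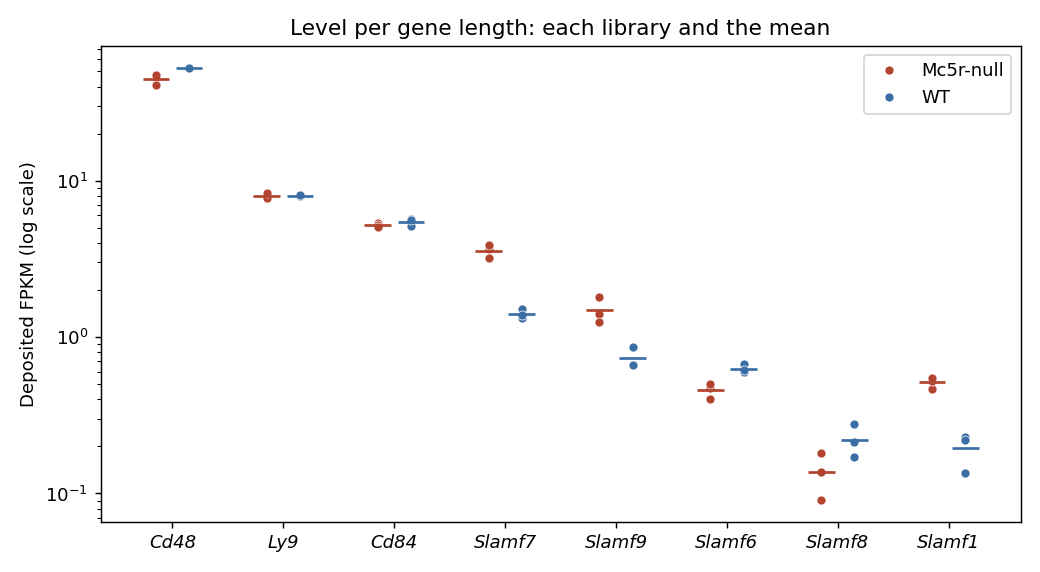
Deposited FPKM of the 8 genes on a log axis, ordered by the WT mean, with 1 point per library and a line at the mean; Mc5r-null stands left of WT for each gene. Cd48 exceeds all others in both genotypes, and the mean of Slamf1 lies above those of Slamf6 and Slamf8 in Mc5r-null and below all others in WT.

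The 8 genes together held 182 to 202 CPM in the Mc5r-null libraries and 193 to 199 CPM in the WT libraries, and these ranges overlapped. Cd48 made up 41.9 ± 1.04% of these counts in Mc5r-null and 48.3 ± 0.854% in WT, and Slamf1 1.69 ± 0.158% in Mc5r-null and 0.637 ± 0.175% in WT (SD, n = 3 each). Slamf1 and Slamf7 thus took a larger part, and Cd48 a smaller part, of a total that overlapped between the genotypes.

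SLAM receptors signal through adaptors, kinases and phosphatases. Of 17 such genes, 15 were tested, and 5 were higher (Lck, Fyn, Csk, Plcg1 and Plcg2) and 2 lower (Lyn and Vav1). Their median log2 fold change was 0.02, and of all genes tested 16.8% were higher and 16.1% lower. The adaptor gene Sh2d1a (SAP) had counts in 1 WT library only, and Sh2d1b2 was at 0 in every library. Sh2d1b1, which encodes the SAP relative EAT-2, had 1.28 to 2.13 CPM in Mc5r-null and 2.61 to 3.01 CPM in WT, and was not called (log2 fold change -0.59 ± 0.21 SE, edgeR adjusted p = 0.0623). The kinase gene Lck was higher, with 41.4 ± 3.42 CPM in Mc5r-null and 28.9 ± 1.73 CPM in WT (SD, n = 3 each; log2 fold change 0.55, edgeR adjusted p = 0.000753). The phospholipase gene Plcg2 (1.11-fold) and Csk (1.12-fold), the gene of the kinase that restrains Src kinases, were slightly higher, and the exchange factor gene Vav1 was 1.12-fold lower.

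Other surface genes used beside CD150 and CD48 in gates of LSK cells were mostly higher. Of 12 tested, 8 were higher and 1, the tetraspanin gene Cd9, was lower (median log2 fold change 0.30). The 12 include Kit and Ly6a, which define the LSK gate itself. Kit (log2 fold change 0.12) is 1 of the 8 higher, and Ly6a (0.20, edgeR adjusted p = 0.446) was not called. Flt3, the marker of lymphoid-primed progenitors, had 528.6 ± 3.55 CPM in Mc5r-null and 390.7 ± 2.17 CPM in WT, and Cd34 had 653.9 ± 5.69 CPM in Mc5r-null and 552.9 ± 19.7 CPM in WT. Procr, the stem cell marker EPCR, had 20.8 ± 0.854 CPM in Mc5r-null and 12.0 ± 0.932 CPM in WT (SD, n = 3 each; edgeR adjusted p of these 3 at most 0.000155). The stem cell marker Procr and the progenitor marker Flt3 were thus both higher beside Slamf1.

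Megakaryocyte progenitors are also known to carry CD150. Of 9 megakaryocyte and platelet genes tested, 3 were higher and 1 lower (median log2 fold change 0.15), against 16.8% and 16.1% of all genes tested. The list summed to 214 to 227 CPM in Mc5r-null and 173 to 185 CPM in WT. The selectin gene Selp (log2 fold change 0.88) and Vwf (0.46) were among those higher, and the platelet factor gene Pf4 (-1.05) was lower. Of 12 erythroid genes tested, 11 were higher and 0 lower (median 1.84), with a sum of 184 to 185 CPM in Mc5r-null and 33.8 to 35.4 CPM in WT, led by the globin genes Hba-a1 (log2 fold change 3.03), Hba-a2 (3.58), Hbb-bs (3.04) and Hbb-bt (2.20). The genes of each globin pair are near-identical copies, so the split of reads between them is uncertain. Of 9 endothelial genes tested, 7 were higher and 0 lower (median 0.95), with a sum of 132 to 139 CPM in Mc5r-null and 116 to 121 CPM in WT. Most of that sum was Pecam1, which was not called, at 93.7 ± 4.70 CPM in Mc5r-null and 96.4 ± 2.81 CPM in WT (SD, n = 3 each). Sparc (log2 fold change 1.70), Kdr (2.16), Stab2 (2.17) and Plvap (1.03) had the smallest p-values. Among the genes called higher, 4 erythroid genes, Alas2 and Epor among them, and 2 endothelial genes (Kdr and Stab2) passed the filter on low counts through the Mc5r-null libraries alone. No gene of these 3 lists was at 0 in every library, and the part of these cells in the Slamf1 difference was not tested.

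**Figure D4:**
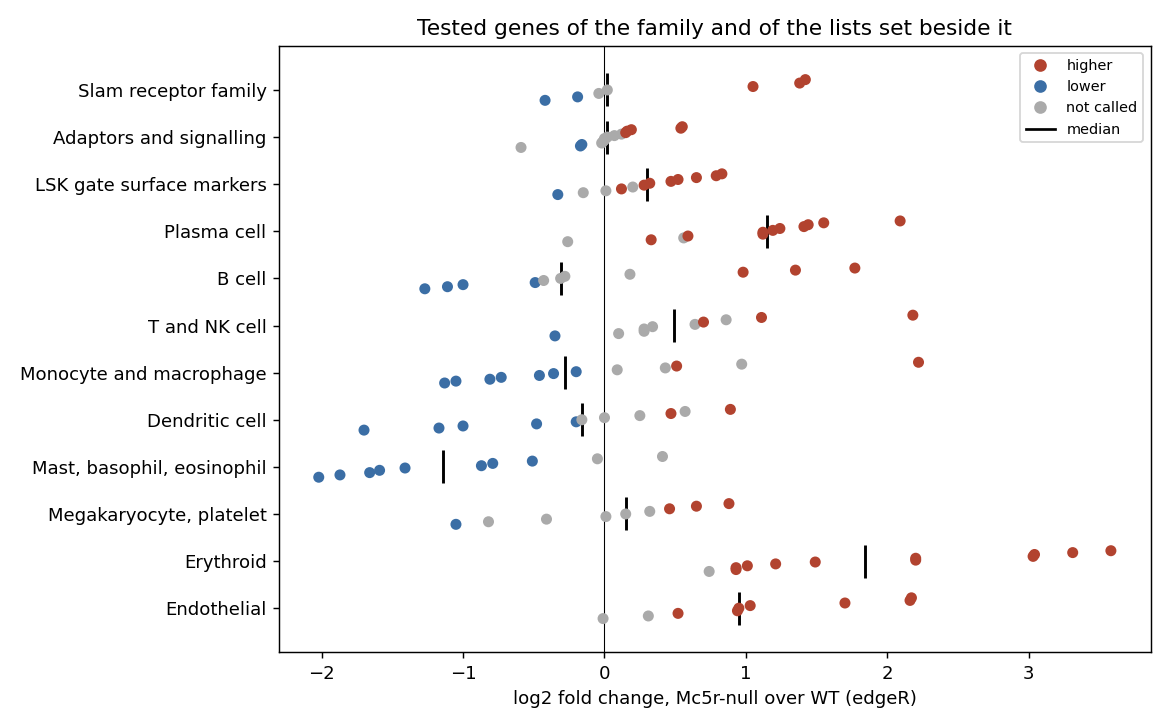
Log2 fold change of Mc5r-null over WT for each tested gene of the family and of the lists beside it; red points were called higher, blue points lower, grey points not called, and black bars are medians. The family holds points on both sides with a median of 0.02, plasma cell and erythroid genes lie mostly to the right, and mast cell, basophil and eosinophil genes mostly to the left.

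The members lie on chromosome 1, and their neighbours were called in both directions. Between 171088624 and 173090568, which is 500000 bases beyond the outermost members, 41 genes other than the members were tested, of which 9 were higher and 7 lower (median log2 fold change 0.07). Among all genes tested, 16.8% were higher and 16.1% lower, so calls in both directions are not particular to this interval. Slamf7 and Cd48 stand next to each other among the genes tested and moved in opposite directions, as did Slamf1 and the nearest gene tested before it, the pseudogene Tma7-ps (log2 fold change -0.39 ± 0.07 SE, edgeR adjusted p = 0.00356). Vangl2, the planar polarity gene after Slamf6, was higher (0.56 ± 0.09 SE, edgeR adjusted p = 0.00171), as was Igsf9 after Slamf9 (0.60 ± 0.16 SE, edgeR adjusted p = 0.0231). Igsf9 was no longer called by DESeq2, in the fit blocked by replicate number, or without Mc5r-null replicate 1 or 3 or WT replicate 1 or 3. Gm10521, Gm37145, Cfap45 and Dusp23, also next to members, were not called (edgeR adjusted p between 0.125 and 0.957). The smallest p-values elsewhere in the interval were those of Arhgap30 (log2 fold change 0.25), Fcer1g, the gene of an Fc receptor chain (-0.65), F11r, the gene of a junctional adhesion molecule (0.80), and the coatomer gene Copa (-0.17).

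**Figure D5:**
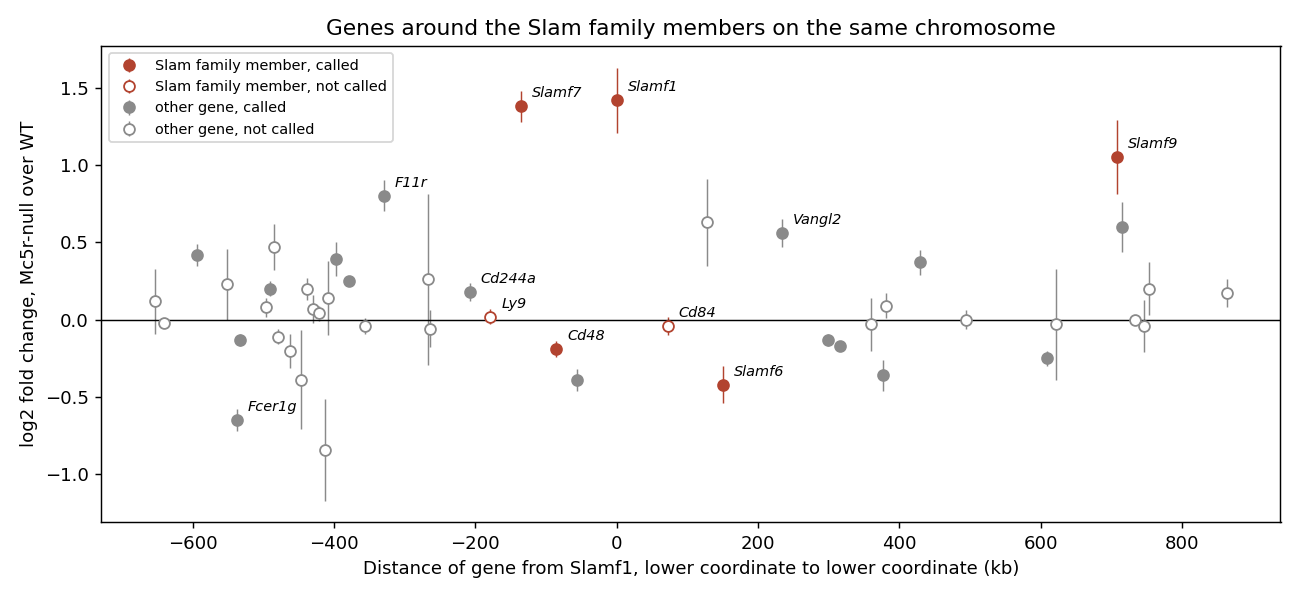
Log2 fold change of Mc5r-null over WT, with SE bars, against the distance from Slamf1 in kb (lower coordinate to lower coordinate) for the genes tested in the interval; red points are members, grey points other genes, filled points called. Slamf7, Slamf1 and Slamf9 stand above all other genes, with called genes of both directions between them.

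Across the 6 libraries, the patterns closest to that of Slamf1, by Pearson correlation of log2 CPM among 9981 genes of at least 10 CPM on average, were those of Tmem106b (r = 0.995), Tpst1 (0.995) and the interleukin-1 decoy receptor gene Il1r2 (0.994). Those closest to Cd48 were Vcp (0.992), Ndufaf8 (0.991) and Usp2 (0.989). The sizes of the differences were not alike: Tmem106b had 39.2, 39.6 and 39.8 CPM in Mc5r-null and 37.2, 38.1 and 38.2 CPM in WT. As 401 genes reached an r of 0.95 with Slamf1 and 90 with Cd48, in libraries that fall into 2 genotypes, these values are a description only.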

How the data were processed

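The authors deposited whole-number counts per gene, with no normalization, and FPKM values beside them, in 1 table, per the file headers. Libraries were paired-end and stranded, per the labels' protocols. The submitters' processing notes name CASAVA 1.8, HISAT2, StringTie, edgeR and GRCm38 without roles; which program counted, with what annotation and whether by strand, is not stated there. The deposited FPKM equal CPM divided by the summed length, in kilobases, of all distinct annotated exons, overlapping ones included, in 98.0% of 11540 genes checked (GENCODE M21, tolerance 0.01).

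Genotype was fitted to the counts with edgeR 4.0.16 in R 4.3.3, using filterByExpr (minimum count 10, minimum total 15), TMM scaling and the robust quasi-likelihood F-test of genotype over all genes, called at a Benjamini-Hochberg adjusted p under 0.05. SEs are the log2 fold change divided by the root of F. CPM divide counts by the library's total, and lists were described by counts and medians. The fitting steps were also run on simulated counts, and the outcome is not reported here. Alternatives were RLE and upper-quartile scaling, DESeq2 1.42.0, limma-voom (limma 3.58.1), 2 other filters on low counts, the replicate number as a block, fits without immunoglobulin genes and without each library. The members, lists and motifs were chosen with earlier results of these data known. Named were all members, their relatives, up to 4 genes per list and in the interval with the smallest p, markers at 0, neighbours of members, and the 3 genes most correlated with Slamf1 and with Cd48. Kit, Ly6a, Cd9, Jchain, Txndc5, Fkbp11, Fyn, Lyn, Plcg1, Sh2d1a, Sh2d1b1, Tcf4, Ccr9, Axl, Adgre1, Cd68, Vcam1, C1qb, C1qc, Mrc1, Spic, Mertk, Ly6c2, Pecam1 and the genes named for passing the filter through 1 genotype were named after their values were seen. Flt3, Itga2b and Tek are among the genes that stand in 2 lists. The values of some listed genes are not reported here. No library was left out of the reported values.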

Additional observations from a re-analysis of the deposited data

How the results depend on the processing

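The direction of Slamf1, Slamf7, Slamf9, Cd48, Slamf6 and Cd84 was the same in all 14 alternatives. Leaving out 1 library gave Ly9 log2 fold changes between -0.02 (without Mc5r-null replicate 3) and 0.04, and Gm37145 between -0.22 and 0.17 (without Mc5r-null replicate 3; 0.15 without WT replicate 2), none of them called. With DESeq2, 1656 genes were called higher and 1446 lower, against 2567 and 2456 with edgeR, and of the members 2 were called higher (Slamf1 and Slamf7) and 0 lower. Leaving out 1 library gave between 0 and 2 members lower, and 3 higher each time. The cause was not tested. Same-numbered libraries of the genotypes did not deviate together (correlations of 0.00255, -0.0408 and -0.0240 over 15257 genes), so the numbers gave no sign of a pairing. A pairing that touches few genes could be missed by a correlation over all of them. With the replicate number as a block, 2254 genes were called higher and 2148 lower, with 3 members higher and 2 lower. No scaling moved the median of all genes by over 0.1. Slamf8, with at most 13 counts in a library, and Slamf1, Slamf9 and Cd2, with at most 49, are limited by depth.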
